A study of Mus musculus with 16 samples.

Results

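The semaphorins, plexins and neuropilins were followed in embryonic mouse sensory ganglia. They are 31 of the 24421 gene symbols in the deposited count table, taken by name as every symbol of the semaphorin classes 3 to 7, of the plexins A to D and of the neuropilins. There were 7 class 3 semaphorins, 13 semaphorins of classes 4 to 7, 9 plexins and 2 neuropilins. PolyA RNA was sequenced from lumbar dorsal root ganglia, which hold the cell bodies of sensory neurons beside the spinal cord, of C57BL/6 embryos at embryonic day 13.5. The 16 libraries form 4 groups of 4. KO_alpha3 lacks importin alpha3, the nuclear import adaptor encoded by Kpna4, and WT_alpha3 holds the wild types labelled with that line. KO_beta lacks the 3′ untranslated region of importin beta1, a nuclear import receptor encoded by Kpnb1, and WT_beta holds the wild types labelled with that line. Per the series' design text, all 8 wild types served as controls for both knockouts. The labels name no Cre or transgene and do not say whether a library is 1 embryo or a pool, so p-values measure the spread between these libraries only.

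Semaphorins are a large family of guidance proteins that steer growing axons, most often by repelling them. Class 3 members are secreted and bind a complex of a neuropilin, which holds the ligand, and a class A plexin, which signals into the cell. Members of classes 4 to 7 are anchored in the membrane and mostly bind plexins directly. Plexins act on small GTPases and the cytoskeleton, and in the dorsal root ganglion this system guides the axons that sensory neurons send to skin, muscle and spinal cord.

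Levels are CPM, in which each library's counts are divided by its total, corrected for composition by the TMM method. Library totals ran from 19682595 to 26873361 counts, and the 31 members were all among the 15641 genes kept by a filter on low counts. The targeted Kpna4 measured 0.87 ± 0.24 CPM (SD, n = 4) in KO_alpha3, against 76.6 ± 5.16 CPM in the 8 wild types and 74.3 ± 0.65 CPM in KO_beta, with 14 to 27 counts in each KO_alpha3 library. Kpnb1 measured 525 ± 20.6 CPM (SD, n = 4) in KO_beta and 437 ± 50.3 CPM in the wild types, and a gene-level count does not check the deletion of its 3′ untranslated region. Isl1 and Pou4f1, transcription factors that mark sensory neurons, measured 400.5 to 684 and 242 to 500.2 CPM across the libraries, and Sox10, which marks glia, 178 to 322 CPM. Reads of Y-linked genes were present in all WT_alpha3 and KO_beta libraries, in KO_alpha3 50 and 75, and near 0 in the others, all WT_beta included. Sums of 10 spinal cord markers were highest in WT_beta 401, WT_alpha3 79 and WT_alpha3 45 (90.2, 72.6 and 40.1 CPM), against 1.76 to 35.6 CPM in the other libraries. Sums of 6 sympathetic markers were highest in WT_alpha3 45 (617 CPM) and WT_beta 401 (433 CPM), and Alb stood at 1783 CPM in WT_beta 399.

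A measure of developmental age was taken from red blood cells carried along with the ganglia. Primitive red cells switch from the globin Hbb-bh1 to Hbb-y as they mature, so a higher log2 ratio of Hbb-bh1 to Hbb-y marks an earlier library. The ratio ran from -7.002 in KO_beta 411 to -3.71 in KO_alpha3 81, a span of 3.29. The 4 libraries with the highest ratio were KO_alpha3 81, WT_alpha3 79, WT_alpha3 45 and KO_alpha3 42 (-3.71, -4.10, -4.79 and -5.10), all of the alpha3 line. They are called the early libraries from here on, and WT_beta 399 came next at -5.17. Late libraries held few Hbb-bh1 counts, with 49 as the lowest, so their order among themselves is less certain.

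All 31 members were expressed. Per kb of coding length, the scale on which genes can be compared with each other, the mean over 16 libraries was highest for Nrp1 (169 CPM per kb), followed by Sema6d (113), Plxna4 (73.4), Plxnd1 (69.5), Plxna3 (62.6) and Sema4g (61.8). The lowest were Sema3a (3.32), Plxnb3 (2.73) and Sema3e (2.33). Receptors thus filled 4 of the 5 highest places and class 3 ligands 2 of the 3 lowest. Divided instead by the length of all annotated exons, Plxnd1 came first, then Nrp1, Plxna3 and Sema6d. Even Sema3e, the weakest member, held 56 to 179 counts per library.

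**Figure D1:**
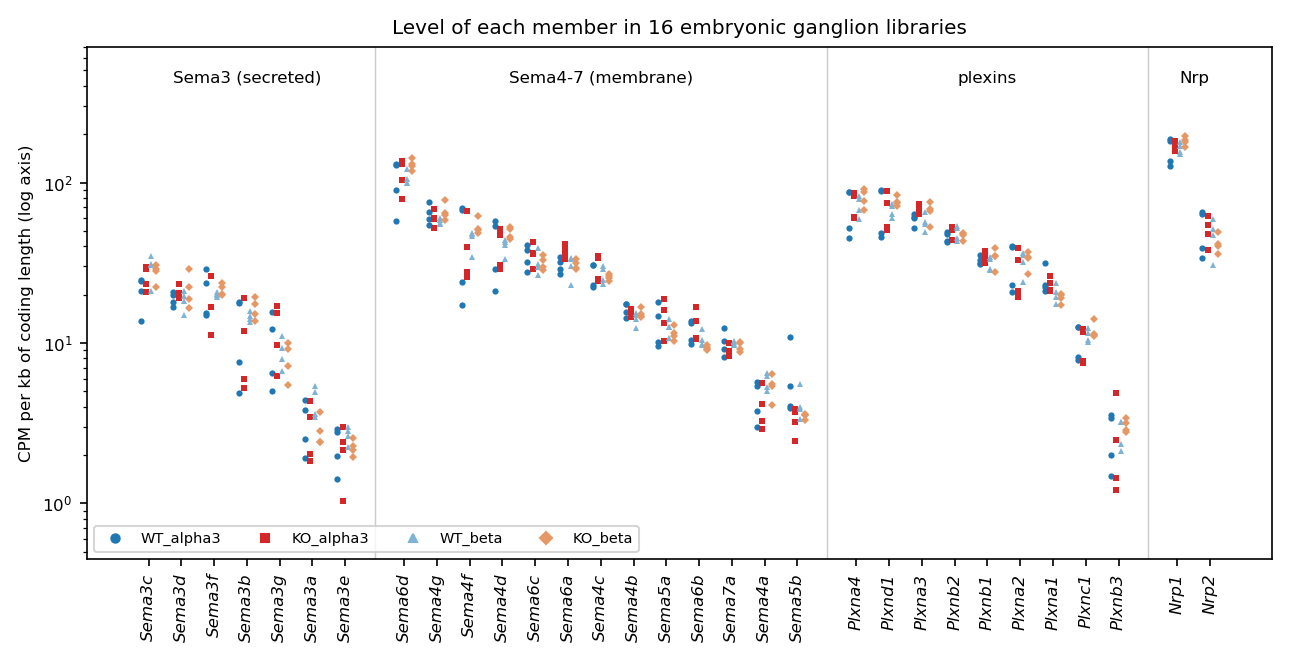
Level of each member in CPM per kb of coding length (log axis) in the 16 libraries, 1 point per library, coloured by group and ordered by role and mean. Nrp1 stands highest at a mean of 169 CPM per kb and Sema3e lowest at 2.33.

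Ligands and receptors of the family varied with the globin ratio. In an edgeR fit with the globin ratio and the 4 groups as terms, 14 members were lower and 5 were higher in early libraries at a Benjamini-Hochberg adjusted p under 0.05, together 19 of 31 (61.3%). Over all 15641 genes tested the share called was 46.7%, with 26.1% lower and 20.5% higher. The share of members called lower (45.2%) stood above that of all genes and the share called higher (16.1%) below it. The median slope was -0.09 on the log2 scale per unit of the ratio, against -0.0050 over all genes tested. DESeq2 called 20 members and limma-voom 18, against 47.9% and 45.9% of all genes.

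The early libraries stood apart from the other 12 without overlap in 13 members, 9 lower and 4 higher. Over all genes tested, 10.3% were lower and 8.83% were higher without overlap. The 9 lower members were Plxna2, Plxnb3, Plxnc1, Plxnd1, Sema3b, Sema3f, Sema4a, Sema4d and Sema4f. Sema3g, Sema4c, Sema5a and Sema6b were the 4 higher ones. Against the other 4 libraries of the alpha3 line alone, 13 members were lower (41.9%) and 5 higher (16.1%) without overlap. Over all genes tested the shares in that split were 19.4% and 18.7%.

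**Figure D2:**
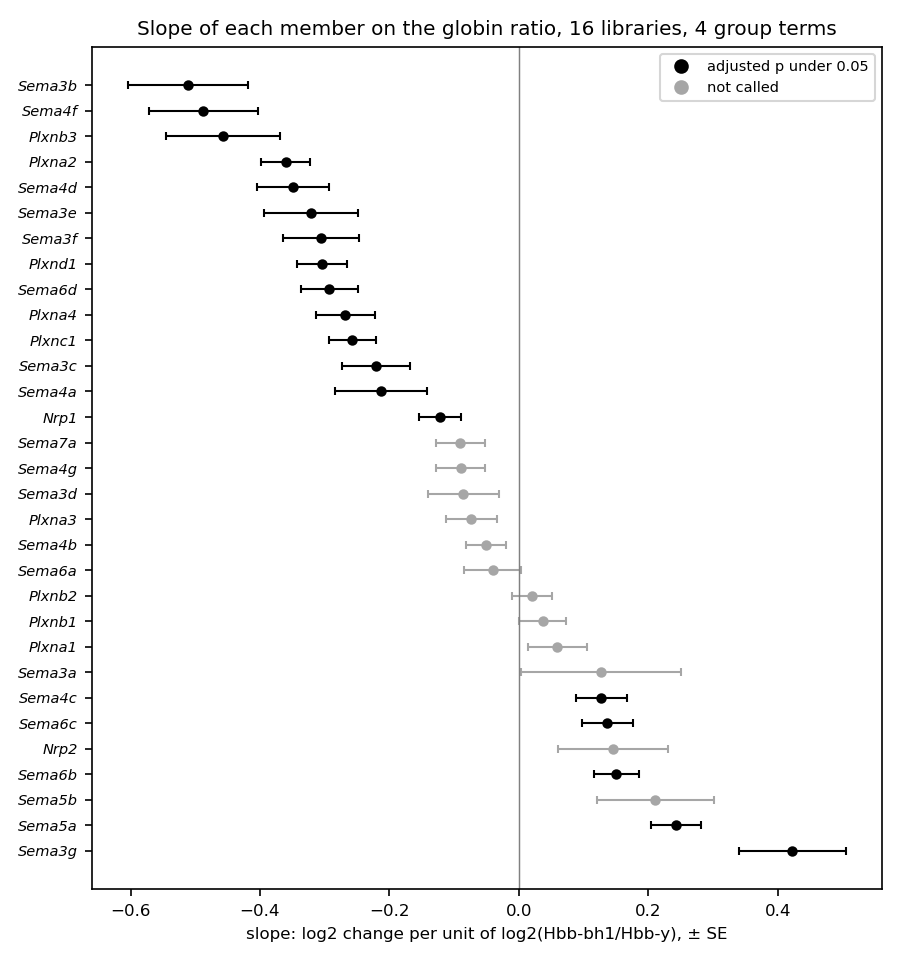
Slope of each member on the globin ratio (log2 change per unit of log2 Hbb-bh1/Hbb-y) with its SE, from 16 libraries and 4 group terms; black points have an adjusted p under 0.05. Slopes run from -0.51 for Sema3b to 0.42 for Sema3g, and 14 of the 19 black points lie below 0.

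**Figure D3:**
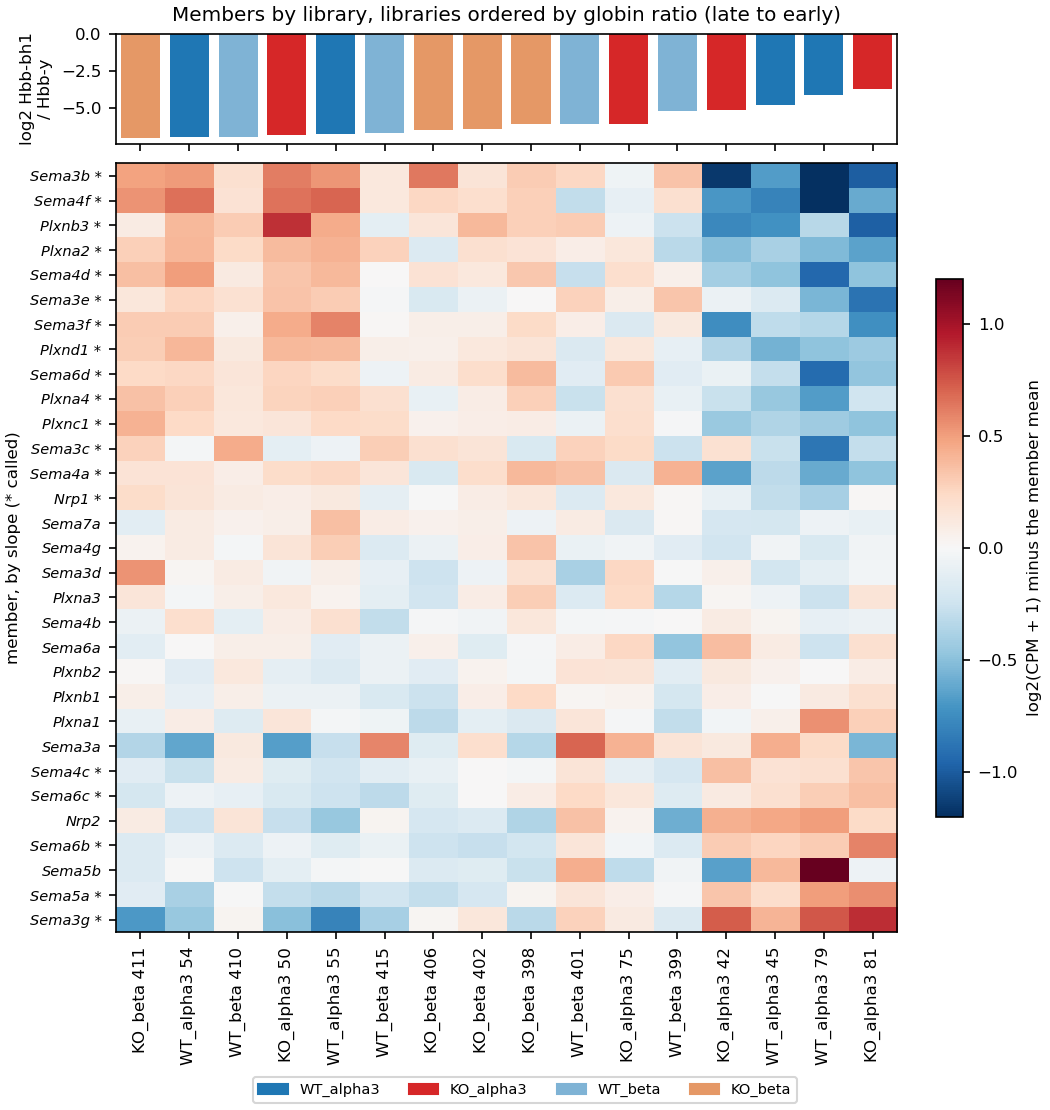
Level of each member in each library as log2(CPM + 1) minus the member's mean, with libraries ordered from the lowest to the highest globin ratio (bars on top) and members ordered by slope; a star marks a called slope. The 4 columns at the right, the early alpha3-line libraries, are blue in most of the upper rows and red in the lowest ones.

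Values by library follow in the order WT_alpha3 45, 54, 55 and 79, KO_alpha3 42, 50, 75 and 81, WT_beta 399, 401, 410 and 415, and KO_beta 398, 402, 406 and 411. The early libraries are thus the first and the last of each alpha3 list. A slope is the log2 change per unit of the ratio, so a negative slope means a lower level in early libraries.

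Among the class 3 ligands, 4 were lower and 1 was higher in early libraries, and both others had no called slope. Over all genes tested 26.1% were lower and 20.5% higher. Sema3b and Sema3f lie near each other on chromosome 9, and Sema3a, Sema3c, Sema3d and Sema3e on chromosome 5. Sema3b (chr9:107597674-107609241, GRCm38.p6), a secreted ligand, measured 17.0, 39.7, 40.3 and 10.9 in WT_alpha3 and 11.8, 42.8, 26.6 and 13.5 in KO_alpha3. The beta-line CPM of Sema3b were 35.3, 33.0, 31.7 and 30.3 in WT_beta and 34.3, 30.8, 43.3 and 39.1 in KO_beta. The early libraries lay at 10.9 to 17.0 CPM, below every other library. The slope of Sema3b was -0.51 ± 0.09 (SE, adjusted p = 0.000522), which over the whole span of the ratio comes to a 3.21-fold higher level in the latest library.

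Sema3g (chr14:31217873-31230352), also secreted, went the other way. Its levels were 28.4, 15.2, 11.7 and 36.2 in WT_alpha3, 35.7, 14.6, 22.8 and 39.9 in KO_alpha3, 18.6, 25.9, 21.6 and 15.8 in WT_beta and 16.8, 23.3, 21.5 and 12.7 in KO_beta. The early libraries were the 4 highest, from 28.4 to 39.9 CPM, and did not overlap the others. The slope of Sema3g was 0.42 ± 0.08 (SE, adjusted p = 0.000945), a 2.62-fold higher level in the earliest library over the span.

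Sema3f (chr9:107681499-107710475), which acts through Nrp2 and repels axons, was the third of the class 3 ligands per coding kb (19.7 CPM per kb). It measured 36.2, 55.6, 68.4 and 35.1 in WT_alpha3, 26.3, 61.5, 39.6 and 26.5 in KO_alpha3, 48.7, 47.6, 46.8 and 45.3 in WT_beta and 52.9, 47.2, 47.2 and 55.6 in KO_beta. Early libraries held 26.3 to 36.2 CPM, below all others without overlap, and the slope was -0.31 ± 0.06 (SE, adjusted p = 0.00079).

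Sema3c (chr5:17574816-17730268) was the leading class 3 ligand per coding kb, at 25.9 CPM per kb. Library values of Sema3c were 47.2, 56.0, 54.6 and 30.8 in WT_alpha3, 64.9, 52.4, 66.9 and 46.5 in KO_alpha3, 47.6, 69.3, 78.0 and 70.0 in WT_beta and 50.0, 63.5, 65.2 and 69.4 in KO_beta. WT_alpha3 79 was the lowest at 30.8 CPM, but KO_alpha3 42, also an early library, was higher than every WT_alpha3 library, so early and late libraries overlapped. The slope of Sema3c was -0.22 ± 0.05 (SE, adjusted p = 0.00349).

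Sema3d (chr5:12383161-12588953), second per coding kb at 19.8 CPM per kb, measured 39.1, 46.4, 48.1 and 42.0 in WT_alpha3, 47.6, 44.3, 54.5 and 44.7 in KO_alpha3, 45.5, 34.6, 48.9 and 42.5 in WT_beta and 52.0, 43.6, 38.3 and 67.0 in KO_beta. KO_beta 411 was the highest and WT_beta 401 the lowest, and the slope was -0.09 ± 0.06 (SE, adjusted p = 0.221). Sema3e, which binds Plxnd1 without a neuropilin, had a slope of -0.32 ± 0.07 (SE, adjusted p = 0.00254) at levels of 2.40 to 6.96 CPM. Sema3a, the classical repellent of sensory axons, ranged from 4.27 to 12.5 CPM with no called slope, 0.13 ± 0.12 (SE, adjusted p = 0.418).

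Of the 13 semaphorins of classes 4 to 7, 4 were lower and 4 were higher in early libraries, beside 26.1% lower and 20.5% higher over all genes. Sema6d (chr2:124089943-124667789), a transmembrane ligand of class A plexins and the most abundant semaphorin per coding kb, measured 289, 419.9, 412 and 186 in WT_alpha3 and 334, 423, 439 and 255 in KO_alpha3. In the beta line Sema6d stood at 321, 321, 391 and 338 in WT_beta and 461, 410.4, 378 and 419 in KO_beta. WT_alpha3 79 was the lowest library at 186 CPM, and within the alpha3 line the early libraries lay below the other 4. The slope of Sema6d was -0.29 ± 0.04 (SE, adjusted p = 0.000149).

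Sema4f (chr6:82911884-82939769), a transmembrane semaphorin, had the steepest slope of these classes. Its levels were 56.2, 156, 161 and 40.3 in WT_alpha3, 60.2, 156, 92.4 and 64.5 in KO_alpha3, 113, 80.0, 111 and 108 in WT_beta and 120.3, 114, 118 and 144 in KO_beta. Early libraries held 40.3 to 64.5 CPM and every other library 80.0 CPM or more. The slope of -0.49 ± 0.08 (SE, adjusted p = 0.000393) comes to 3.04-fold over the span.

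Sema4d (chr13:51685529-51793678), a ligand of Plxnb1, measured 74.8, 149, 138 and 54.2 in WT_alpha3, 78.9, 132, 121 and 74.9 in KO_alpha3, 110.1, 86.7, 114 and 106 in WT_beta and 132, 115, 119 and 136 in KO_beta. The early libraries, at 54.2 to 78.9 CPM, did not overlap the others, whose lowest was WT_beta 401 at 86.7 CPM. The slope of Sema4d was -0.35 ± 0.06 (SE, adjusted p = 0.00024), or 2.22-fold over the span.

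Sema5a (chr15:32244813-32696341), a transmembrane protein with thrombospondin repeats, was higher in early libraries: 47.6, 31.02, 32.5 and 58.4 in WT_alpha3, 51.6, 33.4, 43.1 and 60.5 in KO_alpha3, 40.3, 45.1, 40.7 and 34.8 in WT_beta and 41.8, 35.5, 33.2 and 37.2 in KO_beta. The 4 early values ran from 47.6 to 60.5 CPM and lay above all others. The slope of Sema5a was 0.24 ± 0.04 (SE, adjusted p = 0.000212), or 1.74-fold over the span.

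Smaller rises were called for 3 further membrane semaphorins. Slopes were 0.15 ± 0.03 (SE, adjusted p = 0.00293) for Sema6b, 0.14 ± 0.04 (SE, adjusted p = 0.00999) for Sema6c and 0.13 ± 0.04 (SE, adjusted p = 0.0164) for Sema4c, a ligand of Plxnb2. Over all libraries Sema6b ranged from 24.0 to 44.8 CPM, Sema6c from 76.7 to 123 CPM and Sema4c from 55.8 to 86.6 CPM, and the early libraries were the 4 highest for Sema6b and Sema4c. Sema4a was lower in early libraries, with a slope of -0.21 ± 0.07 (SE, adjusted p = 0.0245). It was not called when WT_alpha3 45, 54, 55 or 79 or KO_alpha3 50 or 81 was left out (adjusted p of 0.0595 to 0.154 in edgeR). Sema4g, second of these classes per coding kb (chr19:44988743-45003397), measured 149, 165, 190.0 and 136 in WT_alpha3, 131, 172, 149.6 and 150.2 in KO_alpha3, 140.3, 146, 151 and 138 in WT_beta and 196, 163, 147 and 159 in KO_beta. Its groups and its early and late libraries overlapped, and the slope was -0.09 ± 0.04 (SE, adjusted p = 0.0622). No slope was called for Sema4b, Sema5b, Sema6a or Sema7a, the last held by a lipid anchor and known to bind Plxnc1. Sema4b and Sema7a ranged from 30.4 to 43.4 and 16.3 to 24.8 CPM, while Sema5b ran from 8.24 to 36.6 CPM with WT_alpha3 79 as the highest.

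Among the 9 plexins, 5 were lower in early libraries and none was higher, while 4 had no called slope (Plxna1, Plxna3, Plxnb1 and Plxnb2). The shares over all genes were 26.1% lower and 20.5% higher, and whether plexins differ from other genes was not tested. Plxna2 (chr1:194619791-194816869), a receptor of class 6 semaphorins and of neuropilin complexes, had the lowest p of all 31 members. Its levels were 131, 227, 228 and 118 in WT_alpha3, 120.1, 224, 188 and 109.5 in KO_alpha3, 136, 181, 201 and 207 in WT_beta and 192, 196, 152 and 209 in KO_beta. Early libraries held 109.5 to 130.5 CPM, and WT_beta 399, the next in the globin ratio, was also the next in level at 136 CPM. That held for Plxnb3 too, but for no other member whose early libraries stood apart without overlap. In Sema3b, Sema3f, Sema3g, Sema4d and Sema4f, WT_beta 399 lay within the range of the later libraries (35.3, 48.7, 18.6, 110.1 and 113 CPM). The slope of Plxna2 was -0.36 ± 0.04 (SE, adjusted p = 1.9e-05), a 2.28-fold higher level in the latest library.

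Plxnd1 (chr6:115954811-115995339), the receptor of Sema3e, measured 264, 517, 509.8 and 281 in WT_alpha3 and 307, 515, 432 and 290.4 in KO_alpha3. Its CPM in the beta line were 367, 348, 426 and 411 in WT_beta and 436, 428, 409.9 and 481 in KO_beta. The early libraries, from 264 to 307 CPM, lay below all others without overlap. The slope of Plxnd1 was -0.30 ± 0.04 (SE, adjusted p = 5.57e-05), or 1.999-fold over the span, beside -0.32 ± 0.07 (SE) for its ligand Sema3e.

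Plxnc1 (chr10:94790866-94945015), the receptor of Sema7a, measured 38.7, 59.4, 59.3 and 36.9 in WT_alpha3, 36.6, 55.4, 57.6 and 35.5 in KO_alpha3, 49.5, 47.6, 54.6 and 58.3 in WT_beta and 53.5, 52.9, 51.9 and 67.0 in KO_beta. Early libraries formed a narrow low set of 35.5 to 38.7 CPM, and the lowest of the others was WT_beta 401 at 47.6 CPM. The slope was -0.26 ± 0.04 (SE, adjusted p = 9.91e-05), whereas that of its ligand Sema7a was -0.09 ± 0.04 (SE, adjusted p = 0.0656). The difference between these slopes was not tested.

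Plxna4 (chr6:32144543-32588192), a signalling partner of Nrp1 in the response of sensory axons to Sema3a, was the most abundant plexin per coding kb. It measured 297, 498, 497 and 256 in WT_alpha3, 339, 491, 468 and 345 in KO_alpha3, 385, 339, 449.8 and 468 in WT_beta and 498, 436, 383 and 521 in KO_beta. WT_alpha3 79 and 45 were lowest, and early libraries lay below the rest of the alpha3 line but overlapped the beta line. The slope of Plxna4 was -0.27 ± 0.05 (SE, adjusted p = 0.000342). Plxna4, Plxna1, Plxnb1 and Sema4c share exon bases with an annotated gene on the opposite strand, and whether strand was used in the counting is not stated, so reads of such partners cannot be told apart from theirs.

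Plxnb3 (chrX:73756556-73772510), an X-linked receptor and the weakest plexin, measured 8.47, 19.5, 20.4 and 11.5 in WT_alpha3, 8.199, 27.9, 14.1 and 6.94 in KO_alpha3, 12.1, 18.4, 18.3 and 13.5 in WT_beta and 18.2, 19.6, 16.3 and 15.8 in KO_beta. Early libraries held 6.94 to 11.5 CPM and all others 12.1 CPM or more. In KO_alpha3, libraries 42 and 81 were both early and near 0 in Y-linked reads, so ratio and sex cannot be told apart within that group. The slope of Plxnb3 was -0.46 ± 0.09 (SE, adjusted p = 0.000819), or 2.84-fold over the span. Plxna3 (chrX:74328290-74344689), also X-linked and the third of the plexins per coding kb, measured 335, 343, 359 and 293 in WT_alpha3, 355, 382, 413 and 389.7 in KO_alpha3, 275, 312, 366 and 321 in WT_beta and 428, 372, 297 and 386 in KO_beta. Its early libraries fell inside the range of the others and the slope was -0.07 ± 0.04 (SE, adjusted p = 0.14). The other uncalled plexins were Plxnb2, a receptor of Sema4c, at 234 to 295 CPM with a slope of 0.02 ± 0.03 (SE, adjusted p = 0.605), and Plxnb1, the receptor of Sema4d, at 176 to 247 CPM with 0.04 ± 0.04 (SE, adjusted p = 0.427). Plxna1 ranged from 98.5 to 179 CPM with 0.06 ± 0.05 (SE, adjusted p = 0.302).

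**Figure D4:**
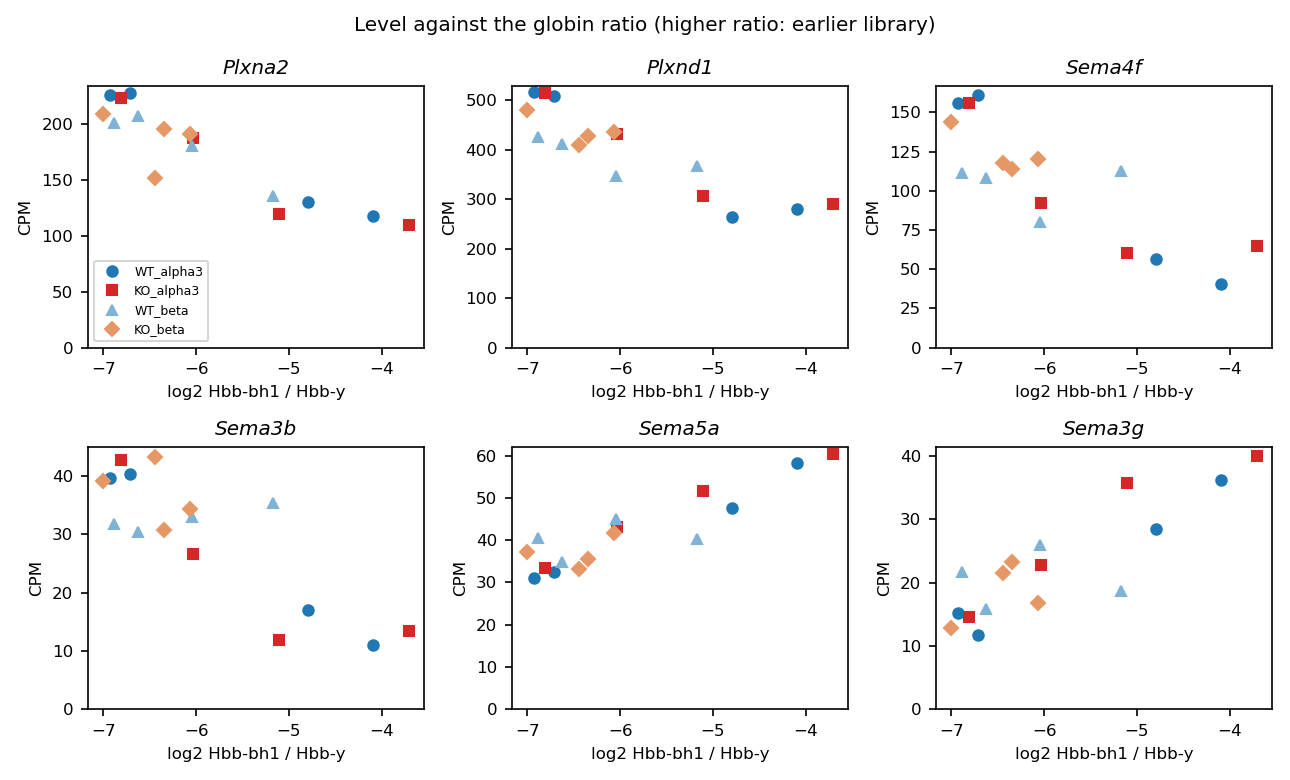
CPM of 6 members (vertical axes, from 0) against log2 Hbb-bh1/Hbb-y (horizontal axes) in 16 libraries, 1 point per library, coloured by group. Plxna2, Plxnd1, Sema4f and Sema3b decline to the right and Sema5a and Sema3g rise, with the 4 early alpha3-line libraries at the right end of each panel.

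Of the neuropilins, Nrp1 had a called slope and Nrp2 did not. Nrp1 (chr8:128358591-128505476), the ligand-binding subunit for Sema3a, measured 377, 515, 504 and 352 in WT_alpha3, 436, 492, 506 and 468 in KO_alpha3, 468, 414, 498 and 430.2 in WT_beta and 511, 493, 463 and 539 in KO_beta. WT_alpha3 79 and 45 were the lowest 2 libraries, and early libraries lay below the rest of the alpha3 line. The slope of Nrp1 was -0.12 ± 0.03 (SE, adjusted p = 0.00733), the shallowest called one at 1.32-fold over the span, and it was not called without WT_alpha3 79 (adjusted p = 0.0961, edgeR).

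Nrp2 (chr1:62703317-62818692), the subunit for Sema3f, measured 178, 109, 94.2 and 184 in WT_alpha3, 174, 106, 133 and 152 in KO_alpha3, 85.5, 165, 144 and 132 in WT_beta and 100.2, 115, 113 and 138 in KO_beta. Within the alpha3 line the early libraries were the 4 highest, while in the beta line the earliest library, WT_beta 399, was the lowest of all 16 at 85.5 CPM. The slope over all libraries was 0.15 ± 0.08 (SE, adjusted p = 0.174). It was 0.25 ± 0.06 (SE, adjusted p = 0.00872) in the alpha3 line alone and -0.40 ± 0.13 (SE, adjusted p = 0.145) in the beta line alone. The difference between the lines was -0.67 ± 0.16 (SE, adjusted p = 0.0586), so it did not pass the threshold. Over the family, 0 of 31 members passed that test of the difference in edgeR, 12 had an unadjusted p under 0.05, and 0.895% of all genes passed, 0.806% higher and 0.0895% lower; no other tool was run for it.

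Signalling genes of the pathway were read from the same fit. Of 44 genes that carry or modify semaphorin signals, 18 were lower and 6 were higher in early libraries, against 26.1% lower and 20.5% higher over all genes, so 24 of 44 were called where 46.7% of all genes were. The lowest p values belonged to Mras, a Ras-family GTPase (-0.24 ± 0.04), Dpysl3, a collapsin response mediator (-0.36 ± 0.06), and the actin-regulating kinases Limk1 (-0.14 ± 0.03) and Limk2 (-0.22 ± 0.04), with slopes ± SE and adjusted p of 0.000197, 0.000404, 0.000461 and 0.000571. The 6 that were higher were Sh3bp1, Dpysl4, Rnd1, Tiam1, Gipc1 and Fes.

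Other cell populations moved with the ratio as well. All 7 neurogenic progenitor markers were higher in early libraries, with a median slope of 1.02, and their summed level was 375 to 653 CPM in the early libraries against 68.9 to 203 CPM in the others. All 8 cell cycle markers were higher too, with a median slope of 0.58. Of the sensory neuron markers, Avil, Nefl, Prph and Stmn2 were lower and Pou4f1 was higher, while Isl1, Tubb3, Elavl4 and Nefm were not called. Of 8 glial markers 4 were lower, of 9 spinal cord markers tested 4 were higher, and of 6 sympathetic markers 1 was lower. Endothelial markers gave 2 lower of 7, epidermal markers 2 higher and 1 lower of 6, fibroblast markers 1 higher and 1 lower of 8, cartilage markers 1 higher of 4 tested, and muscle and macrophage markers none. Erythroid markers gave 3 higher of 5 tested, Hba-x, Hbb-bh1 and Hbb-y. Hbb-bh1 and Hbb-y make up the ratio itself, so their slopes are no separate result. These counts stand beside 26.1% lower and 20.5% higher over all genes. No listed marker was at 0 in any whole group except the adult globin Hba-a1. In whole ganglia, fewer cells of a type and less RNA per cell cannot be told apart. The part of progenitors and dividing cells in the members' slopes was not tested. With the mean log2 CPM of another tissue's markers as a further term, all 19 members kept their sign, and 15 were called with spinal cord markers (31.7% of all genes), 17 with sympathetic markers (38.1%) and 19 with fibroblast markers (48.3%). Without WT_alpha3 45, WT_alpha3 79 and WT_beta 401, a set chosen after seeing the data, 13 were called, against 22.1% of all genes. Those were the 3 libraries highest in the sympathetic marker Dbh (152.9, 73.4 and 65.3 CPM), and WT_alpha3 45 and 79 are early libraries. With the mean log2 CPM of the sensory neuron markers as a further term, chosen after seeing the data, 4 members were called (Plxna2, Plxnb3, Plxnc1 and Plxnd1), against 7.48% of all genes. All 19 kept their sign with that term, 14 members had an unadjusted p under 0.05, and the median slope over the family was -0.086, against -0.090 without it. The slopes still shifted: 5 of 31 were above 0 with the term and 11 without it. With the term 4 members were called lower and 0 higher, against 14 lower and 5 higher without it. Next, 4 wild types high in markers of other tissues were left out (WT_alpha3 45 and 79, WT_beta 399 and 401). They were high in spinal cord markers, sympathetic markers or Alb. This took out the early WT_alpha3 45 and 79, and WT_beta 399, the next in the ratio. In that fit all 19 members kept their sign and 16 were called, against 27.2% of all genes.

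The slopes rested on the early libraries. In the alpha3 line alone all 19 members called over 16 libraries were called again, with 3 more, against 43.6% of all genes. Within KO_alpha3 the early libraries 42 and 81 were near 0 in Y-linked reads (0.33 and 0.04 CPM). The later 50 and 75 held 146 and 133 CPM, so ratio and sex cannot be told apart in that group. With Y-linked expression as a further term all 19 kept their sign and 18 members were called, against 40.3% of all genes. Sema4a and Sema4c lost their call and Sema5b gained one. In the beta line alone, whose ratio spans only -7.002 to -5.17, 13 of the 19 had the same sign and 1 was called, Sema3c at -0.40 ± 0.07 (SE, adjusted p = 0.0182), against 4.51% of all genes. Plxna2 had slopes of -0.37 ± 0.04 (SE, adjusted p = 0.000789) in the alpha3 line and -0.30 ± 0.09 (SE, adjusted p = 0.133) in the beta line. Without the 4 early libraries 0 members were called in edgeR and 3 had an unadjusted p under 0.05, 15 of the 19 kept their sign, and 5.26% of all genes were called; no other tool was run on that set.

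Promoters were searched for the E-box CAGATG, or CATCTG on the other strand, which neurogenins and NeuroD factors bind, because their genes were among the progenitor markers that rose in early libraries. RefSeq promoters (GRCm38.p6, 250 bases before to 50 bases after each annotated start) were at hand for 26 of the 31 members. The motif was in 2 of 37 member promoters (5.41%) and in 5635 of 32851 promoters of all genes (17.2%). Both belonged to members lower in early libraries, Sema4a (chr3:88459234-88459263, minus strand, motif 150 bases before an annotated start that lies inside the gene) and Sema3c (chr5:17574604-17574633, plus strand, motif 200 bases before the gene's start), shown here as the only 2 matches with the motif in capitals.
Sema4a: caccccttgccaCATCTGgggtcctgcctc
Sema3c: cggcggcccgtgCAGATGcggcgggccacg
A match is a run of letters and not a shown binding site.

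No member passed the threshold when importin alpha3 was lost. KO_alpha3 was compared with all 8 wild types in a fit with 3 groups, and 0 of 31 members were called in edgeR, as against 0.00639% of all genes, which is 1 gene. At an unadjusted p under 0.05 there were 3 members, and DESeq2 called 0 members among 128 genes and limma-voom 0 members. The log2 fold change was above 0 in 17 of 31 members, with a median of 0.02 against -0.0060 over all genes.

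Sema6a, a transmembrane ligand of Plxna2 and Plxna4, measured 129.7, 105, 119.8 and 115 CPM in KO_alpha3, a mean of 118 ± 10.1 (SD, n = 4). The wild types measured 108, 101, 91.3 and 84.6 in WT_alpha3 and 72.0, 107, 106 and 95.4 in WT_beta. In KO_alpha3, 3 libraries lay above every wild type and KO_alpha3 50 lay among them. The log2 fold change was 0.28 ± 0.10 (SE, adjusted p = 0.358).

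Sema5b, a transmembrane semaphorin, measured 8.24, 12.4, 10.8 and 13.0 CPM in KO_alpha3, 18.1, 13.5, 13.3 and 36.6 in WT_alpha3 and 13.1, 18.7, 11.3 and 13.5 in WT_beta. WT_alpha3 79, WT_beta 401 and WT_alpha3 45 were the highest, the same 3 libraries that held most spinal cord markers. The log2 fold change was -0.65 ± 0.27 (SE, adjusted p = 0.422), and -0.39 without WT_alpha3 79. It was -0.22 without the 4 wild types high in markers of other tissues. The part of spinal cord tissue in this value was not tested further. Plxna3 had a log2 fold change of 0.23 ± 0.10 (SE, adjusted p = 0.424) and means of 385 ± 23.8 CPM in KO_alpha3 (SD, n = 4) and 325 ± 31.5 CPM in the wild types (SD, n = 8).

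Of the 44 pathway genes 0 were called, and the lowest p values were those of the adhesion molecule Chl1 (-1.13 ± 0.30, adjusted p = 0.330) and the small GTPase Rnd1 (-1.46 ± 0.48, adjusted p = 0.355).

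No member passed the threshold either when the 3′ untranslated region of importin beta1 was lost. KO_beta shares its 8 wild types with KO_alpha3. All KO_beta libraries held Y-linked reads, but of the wild types only those of WT_alpha3 did. Sex is thus not balanced in this comparison. In edgeR 0 of 31 members and 0% of all genes were called, 0 members had an unadjusted p under 0.05, DESeq2 called 1 gene and 0 members, and limma-voom 0. The log2 fold change was above 0 in 19 members, with a median of 0.08 against -0.0026 over all genes. KO_beta libraries were among the later ones, with a mean ratio of -6.47 ± 0.39 (SD, n = 4).

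The lowest p values were those of Plxna3, Sema5b and Sema6b. Plxna3 had a log2 fold change of 0.20 ± 0.10 (SE, adjusted p = 0.932) and a KO_beta mean of 371 ± 54.6 CPM (SD, n = 4). Sema5b measured 11.1 to 12.2 CPM in KO_beta, at the low end of the wild types, which ran from 11.3 to 36.6 CPM, with a log2 fold change of -0.54 ± 0.27 (SE, adjusted p = 0.932). That value was -0.30 without WT_alpha3 79 and -0.13 without the 4 wild types high in markers of other tissues. Sema6b measured 35.2, 27.9, 26.3 and 36.4 in WT_alpha3, 36.2, 28.1, 28.6 and 44.8 in KO_alpha3, 26.0, 32.4, 26.0 and 27.6 in WT_beta and 25.0, 24.0, 24.5 and 25.9 in KO_beta. Its KO_beta values lay just below the lowest wild types, with 25.9 against 26.0 CPM. The share of all genes with such a gap was not counted. The log2 fold change of Sema6b was -0.25 ± 0.12 (SE, adjusted p = 0.932). With the globin ratio as a further term it was -0.15 ± 0.08 (SE, adjusted p = 0.9999, edgeR). Of the 44 pathway genes 0 were called, with Cntn2 (0.29 ± 0.12) and Chl1 (-0.64 ± 0.30) at the lowest p (adjusted p = 0.932 for both).

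**Figure D5:**
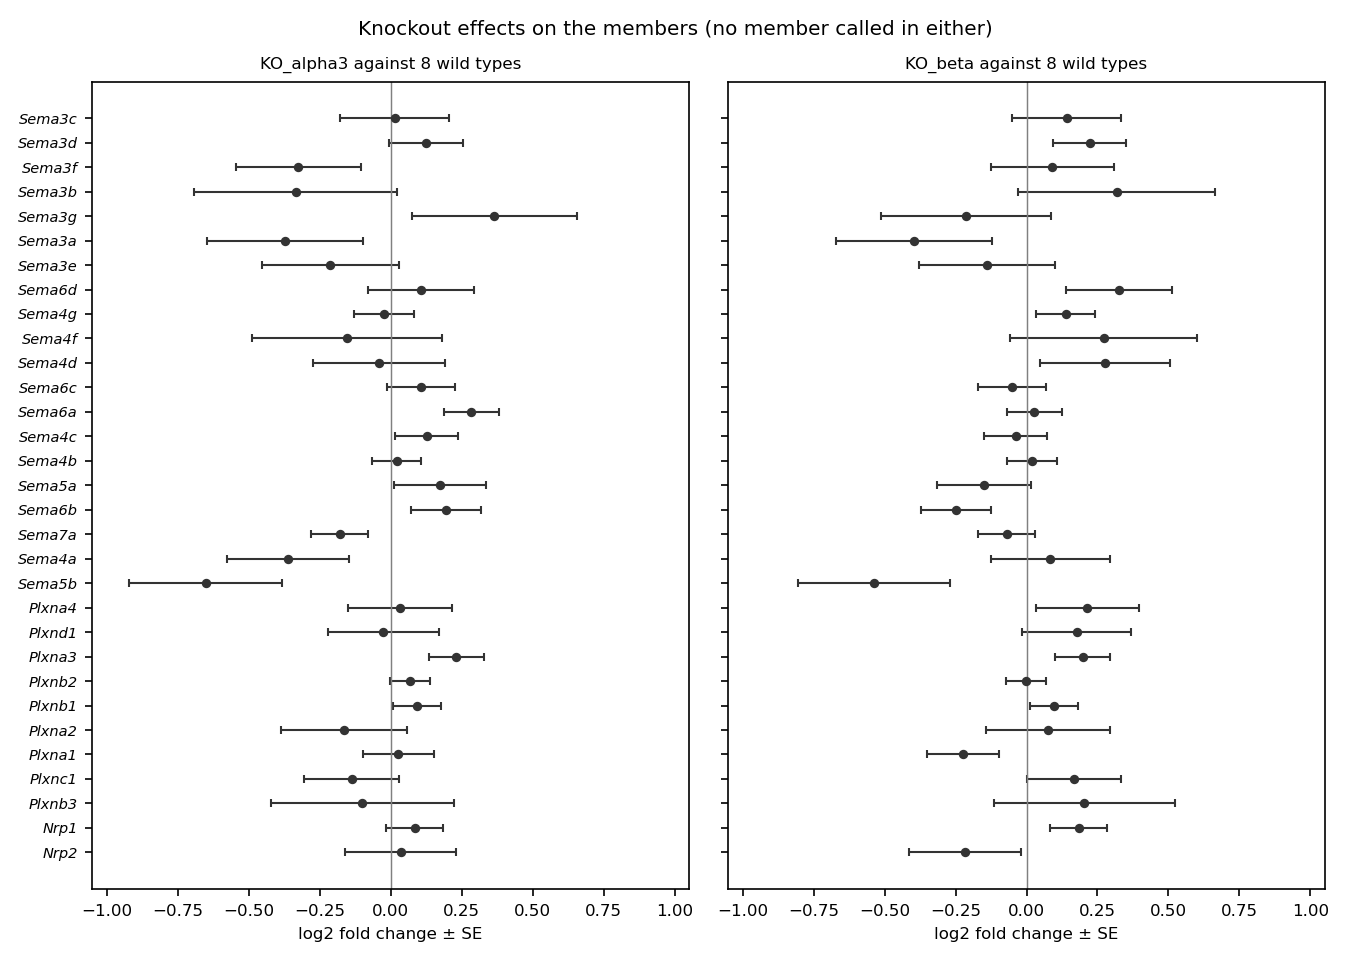
Log2 fold change with its SE of each member in KO_alpha3 (left) and KO_beta (right), each against the same 8 wild types, members grouped by role. No member passes an adjusted p under 0.05 in either panel, and Sema5b has the lowest value in both (-0.65 and -0.54).

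WT_beta was also set against WT_alpha3, as WT_beta minus WT_alpha3. In edgeR 0 of 31 members were called, as against 0.0192% of all genes (0.0128% higher and 0.00639% lower), and 3 members had an unadjusted p under 0.05; DESeq2 called 0 members among 32 genes and limma-voom 0. Sema4b, a transmembrane semaphorin, measured 38.5, 43.4, 43.2 and 35.1 CPM in WT_alpha3 and 37.9, 36.9, 34.8 and 30.4 in WT_beta. These ranges overlapped, and the log2 difference was -0.22 ± 0.09 (SE, adjusted p = 0.859). It was -0.41 without the 4 wild types high in markers of other tissues. Sema3c was at 0.47 ± 0.20 (SE, adjusted p = 0.916) and Plxna1, a class A plexin, at -0.29 ± 0.13 (SE, adjusted p = 0.916). WT_beta libraries measured at most 1.141 CPM of Y-linked genes and WT_alpha3 libraries at least 104 CPM, so line and sex cannot be told apart here. Without the 4 early libraries Sema4d was called lower in WT_beta (-0.47 ± 0.10, adjusted p = 0.0479 in edgeR), with 2 WT_alpha3 libraries left, where 2.03% of all genes were called. Of the 44 pathway genes 0 were called, the lowest p being those of the actin-severing Cfl1 (-0.22 ± 0.08, adjusted p = 0.823) and the GTPase Rac1 (-0.13 ± 0.07, adjusted p = 0.983).

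The knockout effects were also set against each other, each taken against the wild types of its own line, so that they share no control. All KO_beta libraries held Y-linked reads and all WT_beta libraries were near 0. The KO_beta effect of this fit and sex therefore cannot be told apart. KO_alpha3 42 and 81 were near 0 too, while all WT_alpha3 libraries held such reads. In edgeR 0 of 31 members differed, as against 0.00639% of all genes, and 0 members had an unadjusted p under 0.05; DESeq2 called 0 members among 6 genes and limma-voom 0. The differences at the lowest p, KO_alpha3 effect minus KO_beta effect, were -0.34 ± 0.16 (SE, adjusted p = 0.996) for Sema4g, -0.22 ± 0.12 (SE, adjusted p = 0.996) for Sema4b and -0.67 ± 0.39 (SE, adjusted p = 0.996) for Sema5b. The difference for Sema5b was -0.18 without WT_alpha3 79 and 0.06 without the 4 early libraries. That for Sema4b was -0.39 without the 4 wild types high in markers of other tissues. That for Sema4g was -0.03 with Y-linked expression as a further term. Of the 44 pathway genes 0 differed, with the GTPase exchange factors Arhgef11 (-0.47 ± 0.22) and Farp1 (-0.42 ± 0.20) at the lowest p (adjusted p = 0.996 for both). With the globin ratio as a further term, 0 members were called in edgeR in these 4 group comparisons, against 0.00639%, 0%, 0.032% and 0.00639% of all genes, and the members with an unadjusted p under 0.05 numbered 4, 1, 3 and 1; no other tool was run with that term.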

How the data were processed

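The 16 polyA RNA libraries of lumbar dorsal root ganglia fall into 4 groups of 4, and each library carries the number in its title. Raw counts by gene symbol, as whole numbers, were deposited by the authors and used for all tests. Per the submitters' processing notes the build was mm10 and the tools included TopHat2 2.0.10 and HTSeq 0.6.1p1, whose roles are not stated. No annotation or strand setting is named: both were not given in the sources used here. Total counts were 19682595 to 26873361 per library. Within groups, each pair of libraries differed beyond sampling noise (chi-square over its degrees of freedom, 6.30 to 137), and each was counted as 1 replicate. Such a difference does not show that the libraries come from separate embryos.

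Tests used edgeR 4.0.16 under R 4.3.3 (TMM, filterByExpr with a minimum count of 10 and a minimum total of 15, quasi-likelihood fits, 2-sided tests, Benjamini-Hochberg adjustment at 0.05 over all 15641 genes kept of 24421). Each knockout was compared with all 8 wild types in a fit with 3 groups, and fits with 4 groups gave the line comparison, the difference of effects and the slope on the globin ratio. Alternatives were DESeq2 1.42.0, limma-voom (limma 3.58.1), other scalings and filters, covariates, and libraries left out singly or in sets. Fits were tested on simulated counts. Per-library values are given for the 12 members with the lowest adjusted p among those called, the 3 highest per coding kb in each role and, where no member was called, the 3 with the lowest p. Coordinates are RefSeq's, and coding and exon lengths are from GENCODE M21, both on GRCm38. The members, lists, ratio and several sets of libraries were chosen with earlier results of these data known. The results of 1 marker gene are not reported here.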

Additional observations from a re-analysis of the deposited data

Results flagged for a closer look

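In 3 of 124 sets of 4 libraries (31 members in 4 groups), 1 library lay so far from the rest of its group that the gap passed Dixon's 95% critical value, and chance alone flags about 1 in 20 such sets. Plxna1, a class A plexin, measured 179 CPM in WT_alpha3 79, against 120.2 to 130.2 CPM in the other WT_alpha3 libraries. Plxnc1, the receptor of Sema7a, measured 67.0 CPM in KO_beta 411, the library with the lowest globin ratio, against 51.9 to 53.5 CPM in the rest of KO_beta. Sema4f measured 80.0 CPM in WT_beta 401, against 108 to 113 CPM in the rest of WT_beta, and WT_beta 401 also held the most spinal cord markers of all libraries.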

How the results depend on the processing

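In 136 of 141 alternatives over the 5 comparisons, the count of members called stayed the same or within 1.5 times of its value in the report. In the 4 group comparisons that value was 0, where at most 0.0192% of all genes were called with all libraries. There only a count of 0 stood as the same, and the count was 0 in every alternative run except 1. That exception was the line comparison without the 4 libraries highest in progenitor genes, with 1 member (Sema4d), where 2.03% of all genes were called against 0.0192% with all libraries. For the slope on the globin ratio, leaving out each library in turn gave 17 to 21 called members, against 37.5% to 49.6% of all genes. In each of the group comparisons it gave 0 members. The count of called slopes was 0 without the 4 libraries highest in progenitor genes (5.26% of all genes), 1 in the beta line alone (4.51%), 1 without the 5 libraries highest in the globin ratio (Sema4f, 1.86%), and 4 with the sensory neuron markers as a further term (7.48%). The last 3 of these were chosen after seeing the data. Fewer and later libraries enter the first 3 of them. What the marker term removed was not tested. The 19 called members kept their sign and their call with DESeq2 size factors, with library size alone, with either other filter and in DESeq2, and 18 kept their call in limma-voom.

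Some slopes changed sign. Without the 4 libraries highest in progenitor genes, slopes were 0.034 for Sema3e, 0.14 for Sema4a, -0.042 for Sema4c and -0.0061 for Sema6b. In the beta line alone they were 0.039 for Sema3b, 0.086 for Sema3e, 0.010 for Sema3f, 0.22 for Sema4a, -0.060 for Sema4c and -0.011 for Sema6b, and Sema4a stood at 0.083 without the 5 libraries highest in the ratio. None of these was called, and the cause was not tested. No paired analysis was possible because the groups share no replicate number. The weakest member held at least 56 counts per library, and whether depth limited any call was not tested. The globin ratio of late libraries rests on as few as 49 Hbb-bh1 counts.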
